A study of Mus musculus with 9 samples.

Results

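The experimental group of a mouse study of intracerebral haemorrhage was compared with the control group of the same study, gene by gene and function by function. Intracerebral haemorrhage is bleeding into brain tissue, and the model was made with collagenase, an enzyme that digests the collagen around small vessels until they leak. RNA came from brain next to the haematoma and was sequenced in 9 libraries, 3 in each of an experimental, an intervention and a control group. The series title names tetrahedral nucleic acid loaded with miR-124 as a treatment, and the 3 intervention libraries enter no comparison here. The sources used here do not give the injection that each group received, the control group included, nor the strain, age, sex or time of sampling. Nor is it stated whether each library came from its own animal, and p-values then measure only the spread between these samples. Of 33586 entries in the deposited table, the 14231 that reached 1 FPKM (fragments per kilobase of transcript, scaled to the mapped fragments of the library) in 3 or more of the 6 experimental and control libraries were tested.

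Blood that enters the brain brings haemoglobin, whose heme and iron are toxic to cells until they are broken down and stored. Microglia, the resident macrophages of the brain, and monocytes that enter from blood clear the clot and dead cells by taking them up and digesting them in lysosomes. Astrocytes around the lesion enlarge and help to form a scar, vessels lose and rebuild their barrier, and neurons lose synapses or die.

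The FPKM of a library summed to 351148, 343837 and 326857 in the experimental group and to 305225, 303394 and 304188 in the control group. Transcripts of the mitochondrial genome took 29.2% to 32.5% of this sum in experimental and 25.2% to 25.9% in control libraries. The 13 mRNAs among them summed to 101921, 89593.6 and 87699.3 FPKM in experimental libraries. In control libraries they summed to 70324.8, 68324.5 and 68906.4 FPKM, so that they hold a part of the difference between the sums. Why the sums differ was not tested. FPKM carries no absolute depth. The smallest steps of FPKM times length put the relative depth at 1.25 to 1.28 in experimental libraries and at 1, 1.01 and 1.24 in control libraries. The first axis of variation held 74.3% of the variance and separated the groups. The second held 12.96% and separated libraries inside both groups, led by genes of brain regions that are described with the neuronal genes. Values were compared as log2(FPKM + 1) with limma. A gene counts as higher or lower at a Benjamini-Hochberg adjusted p under 0.05, and log2 fold changes are experimental minus control, given with their SE.

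In all, 5325 genes passed the threshold, which is 37.4% of those tested. Of these, 2833 were higher in the experimental group (19.9% of tested genes) and 2492 were lower (17.5%). Genes said to lead a list are its members with the smallest adjusted p. The size of the changes was unequal in the 2 directions. At least a 2-fold rise was found for 707 genes (4.97%), against 18 genes with at least a 2-fold fall (0.126%). All 27 genes that differed by 3 or more on the log2 scale were higher. For 7360 genes (51.7%) every experimental library lay above, or every one below, all control libraries. Among genes with a mean under 2 FPKM, 27.9% were higher and 4.9% lower, while among those between 20 and 100 FPKM 15.9% were higher and 29.4% lower. The filter bears on this, since a gene low in the control can enter through the group where it is high. A gene under 1 FPKM in every control library enters only if all 3 experimental libraries reach 1 FPKM, which fixes its direction. The filter bears on the gene lists too: of their 955 genes, 845 were tested and 107 lay under the filter, so that counts and medians cover tested members only. The median difference over all tested genes was -0.03. When each library was rescaled to the same sum (TPM), the median was -0.19, and 2125 genes were higher and 4809 lower. Medians of gene groups below are to be read against the median of -0.03, and a group whose direction differs under that rescaling is named as such.

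**Figure D1:**
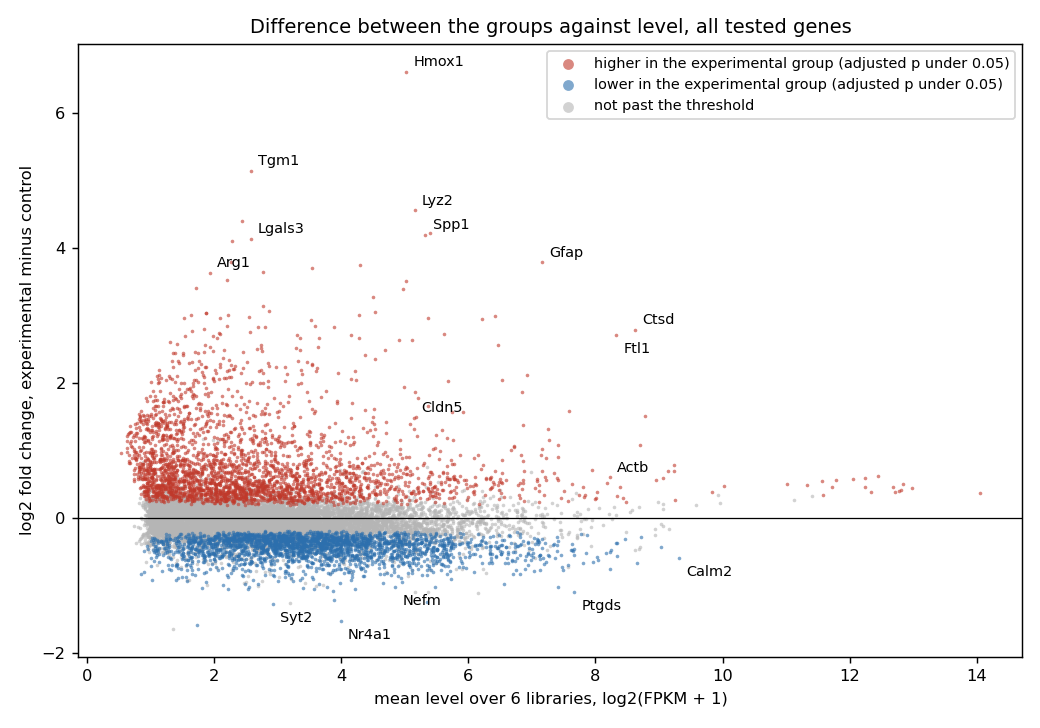
Each point is 1 of the 14231 tested genes, with its mean level over the 6 libraries on the x axis as log2(FPKM + 1) and the log2 fold change, experimental minus control, on the y axis. Red points were higher and blue points lower in the experimental group, and the red cloud reaches 6.61 (Hmox1), while the named falls end at -1.52 (Nr4a1).

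The largest rise was that of Hmox1, heme oxygenase 1, the enzyme that opens the heme ring and frees its iron. Hmox1 (ENSMUSG00000005413.8, chr8:75093621-75100589 on build mm10, GENCODE M21) had 276, 359.7 and 329 FPKM in experimental libraries, against 2.61, 2.31 and 1.96 FPKM in control libraries (log2 fold change 6.61 ± 0.12, adjusted p = 5.70e-07). The groups lay far apart, and the control libraries were all under 3 FPKM. Spp1, which encodes osteopontin, a secreted matrix protein of activated macrophages and a gene at chr5:104435118-104441050, had 157, 169.7 and 187 FPKM in experimental libraries, against 10.2, 5.64 and 9.99 FPKM in control libraries (4.20 ± 0.20, adjusted p = 8.80e-06). The groups lay far apart, with control replicate 2 the lowest of all. Lgals3, or galectin-3, a lectin of phagocytes at chr14:47367751-47386160, had 21.7, 26.8 and 24.03 FPKM in experimental libraries, against 0.442, 0.495 and 0.336 FPKM in control libraries (4.14 ± 0.09). Timp1, an inhibitor of matrix metalloproteases at chrX:20870166-20874735, had 16.7, 19.9 and 21.2 FPKM in experimental libraries, against 0.317, 0.0617 and 0.167 FPKM in control libraries (4.10 ± 0.12). In both genes all control libraries were under 1 FPKM and the groups lay far apart. Arg1, the arginase of alternatively activated macrophages, had 10.9, 16.2 and 10.97 FPKM in experimental libraries, against 0.1301, 0.0874 and 0.0419 FPKM in control libraries (3.63 ± 0.15). Ifi30, a thiol reductase of the lysosome that serves antigen processing, had 41.97, 39.2 and 42.1 FPKM in experimental libraries, against 2.21, 1.72 and 2.82 FPKM in control libraries (3.71 ± 0.12). Its 3 experimental libraries differed little among themselves. Ms4a6d, a myeloid membrane protein, had 14.96, 13.6 and 15.3 FPKM in experimental libraries, against 0.237, 0.522 and 0.307 FPKM in control libraries (3.53 ± 0.10). The other genes among the 15 largest rises were Tgm1, Lyz2, Lcn2, Serpina3n, Ccl12, Gfap, Cd68 and Ifi27l2a, with log2 fold changes between 3.64 (Ifi27l2a) and 5.15 (Tgm1).

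In FPKM the largest gains were those of mitochondrial mRNAs, such as mt-Co1, a subunit of cytochrome oxidase, with 21491, 18739 and 17609 FPKM in experimental libraries, against 15119, 14714 and 14502 FPKM in control libraries. Large gains were also found for Gm10925, Gm28661, Gm28437, Gm29216, Gm28439 and Gm10222, predicted genes on chromosome 1. They are known as copies of mitochondrial sequence in the nuclear genome, and their reads cannot be told apart from those of mitochondrial transcripts. These predicted genes lost their calls with no filter beyond a value above 0 in 3 libraries (adjusted p from 0.127 to 0.320). They lost them after quantile normalization too. With both sets left out, Ctsd and Ftl1 had the largest gains. Ctsd, which encodes the lysosomal protease cathepsin D, lies at chr7:142375911-142388038 and had 899, 1083 and 1136 FPKM in experimental libraries, against 150.0, 148 and 147 FPKM in control libraries (2.79 ± 0.10). Ftl1, the light chain of the iron store ferritin, lies at chr7:45457944-45459884 and had 768, 899.6 and 802 FPKM in experimental libraries, against 119, 123 and 130.3 FPKM in control libraries (2.72 ± 0.09). The groups did not overlap in either gene.

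**Figure D2:**
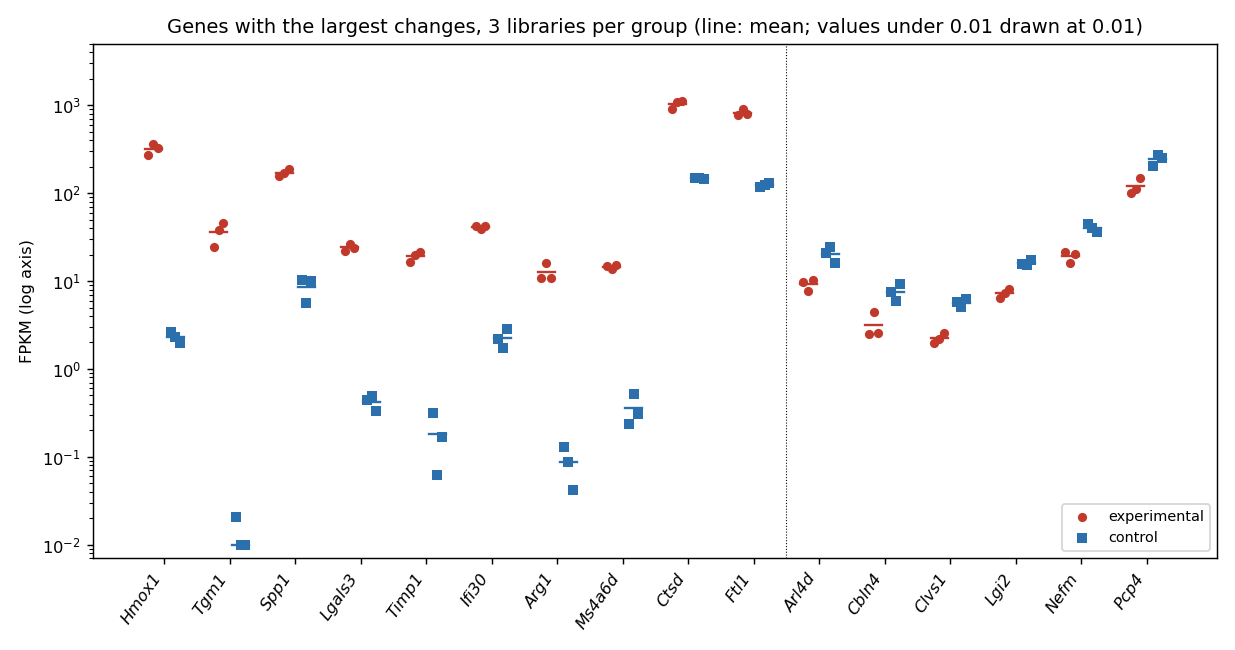
FPKM on a log axis for 10 genes that rose, left of the dotted line, and 6 that fell, with experimental libraries as red circles left of control libraries as blue squares, replicates 1 to 3 from left to right and lines at the means. The groups do not overlap in any of these genes, and rises such as that of Hmox1 (276, 359.7 and 329 against 2.61, 2.31 and 1.96 FPKM) are far larger than falls such as that of Nefm.

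In some genes there was next to no transcript in the control. A total of 23 tested genes were under 0.1 FPKM in every control library, and all 23 were at 1 FPKM or more in every experimental library. A gene this low in the control passes the filter only if it is high in the experimental libraries, so that the second count is fixed by the filter. The 23 include macrophage and myeloid receptor genes (Msr1, Lilr4b, Clec4d, Ly9, Ccr1, Pirb, Milr1, Cd300lf, Siglec1), the chemokine genes Ccl2 and Ccl8, and genes of mitosis (Cdk1, Cdca5, Bub1, Kif18b, Kif2c), named here for this level alone. Ccl2, which draws monocytes into tissue, had 5.36, 8.07 and 8.04 FPKM in experimental libraries, against 0, 0 and 0.0912 FPKM in control libraries (2.97 ± 0.15). Msr1, a scavenger receptor of macrophages, had 3.91, 3.72 and 3.43 FPKM in experimental libraries, against 0.0355, 0.0163 and 0.0241 FPKM in control libraries (2.19 ± 0.08). Neither gene had a control library above 0.1 FPKM.

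Genes that deal with heme, iron and oxidants rose in part. Of 9 tested genes of heme and haemoglobin clearance, 6 were higher and none lower, with a median of 0.42. Beside Hmox1, these were led by Blvrb, a reductase of biliverdin (0.92), Abcg2, an exporter of porphyrins (0.48), and Lrp1, the uptake receptor of heme bound to hemopexin (0.42). The call of Lrp1 was lost when libraries were rescaled to TPM. Cd163, the macrophage receptor for haemoglobin bound to haptoglobin, was under the filter at 0.346, 0.349 and 0.483 FPKM in experimental libraries, against 0.414, 0.333 and 0.455 FPKM in control libraries, with overlapping groups. Of 14 tested genes of iron handling, 9 were higher and 1 lower (median 0.79). Slc11a1, an iron transporter of phagosomes, had 7.25, 8.77 and 8.92 FPKM in experimental libraries, against 0.532, 0.697 and 0.555 FPKM in control libraries (2.54 ± 0.10). Slc40a1, or ferroportin, the iron exporter of cells, was also higher (1.33 ± 0.07). The exception was Tfrc, the transferrin receptor that imports iron, with 13.03, 11.4 and 12.2 FPKM in experimental libraries, against 20.9, 18.6 and 17.6 FPKM in control libraries (-0.60 ± 0.09, adjusted p = 0.00177). All 3 experimental libraries were lower than the lowest control library for Tfrc.

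Of 15 tested target genes of NRF2 and of glutathione metabolism, 11 were higher and none lower (median 0.55). NRF2, encoded by Nfe2l2, is the transcription factor that switches on genes against oxidants. Nfe2l2 itself had 12.4, 13.8 and 15.5 FPKM in experimental libraries, against 5.21, 4.81 and 4.65 FPKM in control libraries (1.34 ± 0.09), and Prdx1, a peroxidase, had 67.6, 85.2 and 75.4 FPKM in experimental libraries, against 33.6, 31.97 and 32.7 FPKM in control libraries (1.19 ± 0.09). Nqo1, Gpx4, Srxn1 and Gclc did not pass the threshold. All 3 metallothionein genes, whose proteins bind zinc and copper, were higher, led by Mt2 (1.88 ± 0.13). The antioxidant response element, to which NRF2 binds, was searched as TGACNNNGC on both strands in the 250 bases before each gene's start. It was present in 5 of the 13 list genes with a RefSeq promoter (38.5%), against 13.9% of all 10288 tested genes with one. The share was 14.7% among those of the 10288 that were higher and 15% among the 541 with at least a 2-fold rise, close to that of all. All 5 list genes with a match were higher, and 2 of them are shown as examples chosen after their values were seen, Gclm (0.49 ± 0.09) and Txnrd1 (0.65 ± 0.08). Capitals mark the matches, and the sequences are from RefSeq on build GRCm38.p6, 5′ to 3′ on the strand of the gene (Gclm at chr3:122245307-122245556, plus strand, and Txnrd1 at chr10:82858956-82859205, plus strand).
Gclm: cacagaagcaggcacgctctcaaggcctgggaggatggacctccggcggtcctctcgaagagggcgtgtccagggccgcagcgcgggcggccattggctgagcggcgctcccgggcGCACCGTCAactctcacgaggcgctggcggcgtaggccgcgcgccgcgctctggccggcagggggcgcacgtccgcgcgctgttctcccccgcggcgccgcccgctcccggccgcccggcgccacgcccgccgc
Txnrd1: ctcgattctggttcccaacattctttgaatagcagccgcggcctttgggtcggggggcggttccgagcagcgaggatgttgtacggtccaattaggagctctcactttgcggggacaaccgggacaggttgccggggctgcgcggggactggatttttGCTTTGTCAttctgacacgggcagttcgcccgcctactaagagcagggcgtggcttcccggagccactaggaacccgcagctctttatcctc
A match describes the letters in this window and does not show that a factor bound there.

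Genes listed as markers of microglia and of monocytes and macrophages rose. In bulk tissue this can come from more cells or from more RNA per cell, and the 2 cannot be told apart. Nor do the lists separate entering from resident cells, and a marker can be shared with other cell types. All 12 tested markers of homeostatic microglia were higher (median 1.57), and their summed level was 533, 579 and 658 FPKM in experimental libraries, against 131, 149 and 134 FPKM in control libraries. Csf1r, the growth factor receptor that keeps microglia alive, had 55.6, 59.5 and 69.8 FPKM in experimental libraries, against 14.6, 16.2 and 14.7 FPKM in control libraries (1.95 ± 0.10). P2ry12, the ATP sensor of resting microglia, had 30.9, 33.6 and 35.7 FPKM in experimental libraries, against 12.9, 13.2 and 12.8 FPKM in control libraries (1.30 ± 0.07). Aif1, a calcium-binding protein of microglia and macrophages, was higher by 2.31 ± 0.15. Of 14 markers of monocytes and macrophages 11 were tested, and these 11 were higher as well (median 1.47), such as Ms4a6c (2.80) and the hyaluronan receptor Cd44 (1.92). Over all tested genes 19.9% were higher. Ms4a6c, Cd44 and Arg1 were under 1 FPKM in every control library, so that their direction is fixed by the filter. Lyz2 was not that low, with 6.87, 5.81 and 6.34 FPKM in control libraries, against 168, 186 and 164 FPKM in experimental libraries.

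Markers of other blood cells stayed low. Of 13 neutrophil genes, 3 reached the filter, and of these Csf3r, a growth factor receptor also found on other myeloid cells, rose (2.19). The neutrophil list summed to 14.96, 16.2 and 16.1 FPKM in experimental libraries, against 2.28, 13.1 and 2.25 FPKM in control libraries, with control replicate 2 near the experimental libraries. S100a8, a calcium-binding alarm protein of neutrophils, had 1.51, 1.97 and 1.04 FPKM in experimental libraries, against 0, 1.27 and 0.164 FPKM in control libraries, and its partner S100a9 had 2.33, 3.29 and 1.93 FPKM in experimental libraries, against 0.282, 4.45 and 0.162 FPKM in control libraries. Neither passed the threshold in all 6 libraries, and both did without control replicate 2 (adjusted p = 0.0044 for S100a8 and 0.00156 for S100a9), while S100a8 also passed with the spread estimated over all 9 libraries (adjusted p = 0.0436). Ly6g, the defining marker of mouse neutrophils, was at 0, 0 and 0 FPKM in experimental libraries, against 0.0342, 0 and 0 FPKM in control libraries. Only 1 of 14 genes of T, B and NK cells, Cd4, reached the filter, and it did not pass the threshold (-0.58 ± 0.33, adjusted p = 0.212). Of the 13 under the filter, 12 had a higher mean in the experimental than in the control group and 1 a lower mean. They were not tested, so Cd4 does not give the direction of this list. None of the 4 tested haemoglobin genes passed the threshold either. Hbb-bs, an adult beta-globin gene, had 12.6, 19.9 and 9.43 FPKM in experimental libraries, against 15.1, 37.8 and 16.01 FPKM in control libraries, with overlapping groups and control replicate 2 the highest (-0.61 ± 0.38, adjusted p = 0.235). Globin genes have near-identical copies, and the sources used here do not give how their reads were assigned.

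Receptors and enzymes of uptake rose together. Of 18 tested phagocytic receptors and bridging molecules, 16 were higher (median 1.76). Fcgr3, a receptor for antibody-coated targets, had 47.9, 48.5 and 47.6 FPKM in experimental libraries, against 6.94, 6.91 and 6.38 FPKM in control libraries (2.66 ± 0.06). Trem2, a lipid receptor of microglia, had 13.9, 15.5 and 15.2 FPKM in experimental libraries, against 2.18, 2.53 and 2.24 FPKM in control libraries (2.26 ± 0.08). Neither gene had overlapping groups. Tested members of some families moved the same way: 7 of 7 Fc receptor genes were higher, 5 of 5 galectins, 5 of 5 Ms4a genes, 6 of 6 Cd300 and Lilr receptors and 6 of 6 Toll-like receptors. Tested members of these families number fewer than their entries, since 7, 4, 9, 12 and 6 further entries lay under the filter. All Ms4a entries together summed to 1.44, 1.31 and 1.26 FPKM in control libraries, and all Cd300 and Lilr entries to 3.09, 2.65 and 2.64 FPKM. Members this low in the control pass the filter mostly by being high in the experimental libraries, so that such counts are largely fixed by the filter. Several of these families have close paralogs between which reads may have been shared. Of 16 tested complement genes, 15 were higher (median 1.92). C1qa, a chain of the recognition molecule of the classical pathway, had 189, 212 and 218 FPKM in experimental libraries, against 23.8, 28.4 and 25.1 FPKM in control libraries (2.96 ± 0.09), and the other C1q chains moved by 2.99 (C1qb) and 2.96 (C1qc). Of 8 tested genes of the NADPH oxidase, the enzyme of the oxidative burst, 7 were higher, led by Rac2 (2.49) and Ncf1 (2.48).

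The lysosome did not move as a unit. Of 20 lysosomal proteases, hydrolases and membrane proteins, 19 were higher and none lower, with a median of 1.46. Ctsz, a cathepsin, had 113, 124 and 140.4 FPKM in experimental libraries, against 17.2, 19.4 and 17.6 FPKM in control libraries (2.73 ± 0.10), and Ctsh, another cathepsin, had 14.2, 16.2 and 14.8 FPKM in experimental libraries, against 2.44, 2.24 and 2.08 FPKM in control libraries (2.30 ± 0.08). Of 15 tested subunits of the vacuolar proton pump, which acidifies lysosomes and also loads synaptic vesicles, 11 were lower and 2 higher, with a median of -0.38. Atp6v1d, a shaft subunit, had 31.4, 30.3 and 29.5 FPKM in experimental libraries, against 42.3, 42.6 and 40.96 FPKM in control libraries (-0.45 ± 0.06), and Atp6v1b2, a subunit of the head that splits ATP, was lower as well (-0.50 ± 0.08). The 2 exceptions were Tcirg1, the membrane a subunit known from osteoclasts and macrophages, and Atp6v0e, a small membrane subunit. Tcirg1 had 10.7, 10.7 and 10.97 FPKM in experimental libraries, against 3.31, 2.69 and 3.09 FPKM in control libraries (1.55 ± 0.08). Its paralog Atp6v0a1, named after its values were seen and known as the a subunit of nerve cells, had 48.2, 47.3 and 46.5 FPKM in experimental libraries, against 60.1, 62.1 and 63.9 FPKM in control libraries (-0.38 ± 0.06). The groups did not overlap in either paralog, and the difference had opposite signs. Both list medians kept their sign under TPM (1.35 for hydrolases and -0.55 for the pump) and when any library was left out (1.40 to 1.56, and -0.40 to -0.35).

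Lipid handling in phagocytes followed the hydrolases in direction. Of 14 tested genes, 12 were higher and 1 lower (median 0.88). Plin2, which coats lipid droplets, had 18.9, 20.99 and 20.6 FPKM in experimental libraries, against 1.51, 1.53 and 1.55 FPKM in control libraries (3.06 ± 0.07), and Gpnmb, a glycoprotein of lipid-laden macrophages, had 8.33, 9.35 and 10.9 FPKM in experimental libraries, against 0.346, 0.292 and 0.187 FPKM in control libraries (3.04 ± 0.11). Ch25h, which makes 25-hydroxycholesterol, was higher by 2.77 ± 0.09. The exception, Nceh1, a cholesteryl ester hydrolase, was lower (-0.41 ± 0.08, adjusted p = 0.00518). Cholesterol synthesis and fatty acid oxidation differed in direction. Of 20 tested genes of cholesterol synthesis and its control, 13 were lower and none higher (median -0.35). Insig1, a sterol sensor of the endoplasmic reticulum, had 14.9, 17.02 and 14.96 FPKM in experimental libraries, against 28.2, 23.6 and 26.7 FPKM in control libraries (-0.71 ± 0.09), and its groups did not overlap. Of 13 tested genes of fatty acid oxidation, 10 were higher and 1 lower (median 0.49). Cpt1a, which admits fatty acids to mitochondria, had 7.86, 8.79 and 9.65 FPKM in experimental libraries, against 3.63, 3.48 and 3.27 FPKM in control libraries (1.13 ± 0.09). The exception was Ppargc1a, a coactivator of mitochondrial biogenesis (-0.42 ± 0.10, adjusted p = 0.0143, and 0.0535 without control replicate 1).

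**Figure D3:**
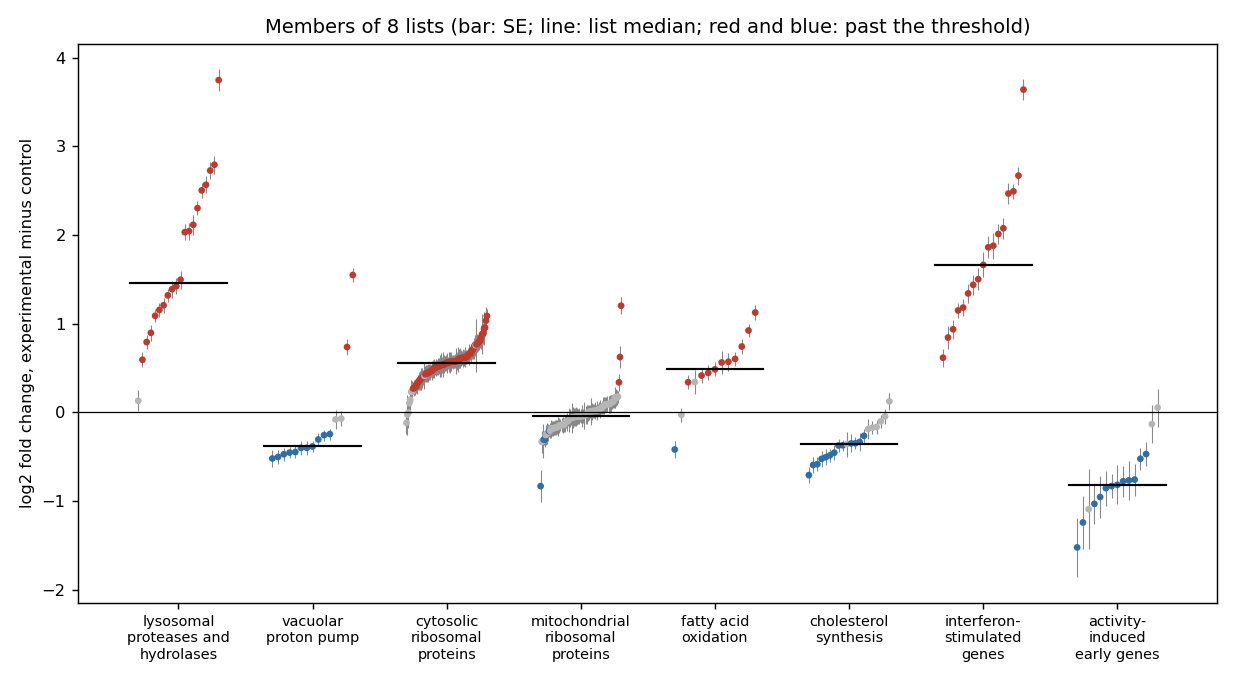
Each point is a tested member of 1 of 8 lists, with its log2 fold change, experimental minus control, on the y axis and its SE as a bar. Members past the threshold are red (higher) or blue (lower), grey ones did not pass, and black lines mark the list medians, such as 1.46 for lysosomal proteases and hydrolases and -0.38 for the vacuolar proton pump.

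Chemokines and cytokine receptors rose, while the classical cytokine genes stayed under 2 FPKM. Of 11 tested chemokine genes (5 more lay under the filter), 9 were higher and 1 lower (median 1.91). Ccl12, a monocyte attractant of mice, had 16.7, 18.9 and 15.7 FPKM in experimental libraries, against 0.218, 0.223 and 0.460 FPKM in control libraries (3.80 ± 0.10), and Cxcl16, made by macrophages, had 5.10, 4.72 and 4.84 FPKM in experimental libraries, against 0.690, 0.489 and 0.521 FPKM in control libraries (1.91 ± 0.08). The exception was Cx3cl1, the chemokine on neurons whose receptor sits on microglia, with 104, 88.03 and 96.1 FPKM in experimental libraries, against 151.2, 179.6 and 138 FPKM in control libraries (-0.69 ± 0.11, adjusted p = 0.0032). Its receptor gene Cx3cr1 was higher by 2.07 ± 0.11. Il1b, Tnf and Il6 all lay under the filter and have no adjusted p. Il1b had 1.61, 1.04 and 0.839 FPKM in experimental libraries, against 0.0265, 0.0388 and 0.0813 FPKM in control libraries, and Tnf had 0.426, 0.343 and 0.503 FPKM in experimental libraries, against 0.0276, 0 and 0.0317 FPKM in control libraries. The groups did not overlap in either gene (exact permutation p = 0.1, two-sided, the smallest that 3 against 3 allows). Il6 was above 0 in 2 of 3 experimental libraries and at 0 in all 3 control libraries. Of 7 tested cytokine ligands, 4 were higher, led by Tgfb1 (1.69 ± 0.09), a cytokine that restrains inflammation and drives scar formation. Of 19 tested cytokine receptors and transducers, 16 were higher (median 1.09), led by the TNF receptors Tnfrsf1b (2.06) and Tnfrsf1a (2.29). All 14 tested genes of Toll-like receptors and NF-kB, of 18 listed, were higher (median 0.93), with Tlr13, which senses bacterial ribosomal RNA, at 2.30 ± 0.07.

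In the JAK, STAT and SOCS group 7 of 12 tested genes were higher. Socs3, a feedback inhibitor of STAT3 signalling, had 8.04, 9.14 and 8.28 FPKM in experimental libraries, against 0.901, 0.763 and 1.17 FPKM in control libraries (2.29 ± 0.10). Prostaglandin and leukotriene genes were split, with 7 of 12 tested genes higher and 1 lower. Alox5ap, the partner protein of 5-lipoxygenase, had 19.5, 19.5 and 19.2 FPKM in experimental libraries, against 1.47, 1.12 and 1.34 FPKM in control libraries (3.14 ± 0.08). Ltc4s, the leukotriene C4 synthase, and Hpgds, the haematopoietic prostaglandin D synthase, were higher by 1.70 ± 0.10 and 1.63 ± 0.11. Ptgds, the brain form of prostaglandin D synthase, was the exception with 109, 199 and 121 FPKM in experimental libraries, against 309.9, 260.4 and 314 FPKM in control libraries (-1.09 ± 0.22, adjusted p = 0.0072). Ptgs2, or cyclooxygenase-2, had 2.95, 1.73 and 2.12 FPKM in experimental libraries, against 2.10, 1.92 and 1.35 FPKM in control libraries, with overlapping groups (0.22 ± 0.16, adjusted p = 0.319).

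Interferon-stimulated genes and antigen presentation rose in all tested members. All 17 tested interferon-stimulated genes, of 20 listed, were higher (median 1.66). So were the 10 tested class I genes, of 11 listed (median 1.14), and the 7 tested class II genes, of 9 listed (median 1.63). Ifitm3, which blocks virus entry, had 63.1, 57.5 and 60.4 FPKM in experimental libraries, against 10.02, 8.91 and 10.8 FPKM in control libraries (2.49 ± 0.08). Bst2, which tethers virus particles to the membrane, had 33.3, 27.1 and 31.6 FPKM in experimental libraries, against 3.78, 3.66 and 4.44 FPKM in control libraries (2.67 ± 0.10). Cd74, the invariant chain that escorts class II molecules, had 18.7, 15.3 and 19.6 FPKM in experimental libraries, against 2.98, 2.30 and 3.75 FPKM in control libraries (2.24 ± 0.15). The groups did not overlap in these 3 genes, nor in H2-D1, a class I heavy chain (adjusted p = 7.11e-06), whose reads can be shared with close paralogs. Of 11 tested interferon-induced GTPases of the Gbp and Irg families, 10 were higher, led by Irgm1 (1.64).

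The interferon-stimulated response element was searched as GAAANNGAA on both strands in the same 250 bases. It was found in 6 of 13 list genes with a RefSeq promoter (46.2%), against 7.1% of all tested genes with one and 12.9% of the 541 among them with at least a 2-fold rise. Isg15, a ubiquitin-like modifier, had 10.5, 10.7 and 12.6 FPKM in experimental libraries, against 1.91, 2.48 and 1.74 FPKM in control libraries (2.01 ± 0.11). Oas1a, which makes the 2-5A signal that activates RNase L, had 6.91, 5.88 and 7.10 FPKM in experimental libraries, against 0.588, 0.240 and 0.318 FPKM in control libraries (2.47 ± 0.12). Ifit1, which binds viral RNA ends, had 4.72, 5.96 and 5.89 FPKM in experimental libraries, against 1.67, 1.28 and 1.26 FPKM in control libraries (1.44 ± 0.11). Their promoters are printed because matches adjoin or overlap there in runs, marked in capitals, within 109 bases of the start (RefSeq, GRCm38.p6, 5′ to 3′ on the gene's strand, with Isg15 at chr4:156200819-156201068, minus strand, Oas1a at chr5:120907526-120907775, minus strand and Ifit1 at chr19:34640639-34640888, plus strand).
Isg15: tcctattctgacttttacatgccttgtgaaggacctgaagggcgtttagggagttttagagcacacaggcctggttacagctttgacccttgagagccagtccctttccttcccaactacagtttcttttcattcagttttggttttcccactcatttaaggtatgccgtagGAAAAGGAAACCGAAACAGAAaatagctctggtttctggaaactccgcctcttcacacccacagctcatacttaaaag
Oas1a: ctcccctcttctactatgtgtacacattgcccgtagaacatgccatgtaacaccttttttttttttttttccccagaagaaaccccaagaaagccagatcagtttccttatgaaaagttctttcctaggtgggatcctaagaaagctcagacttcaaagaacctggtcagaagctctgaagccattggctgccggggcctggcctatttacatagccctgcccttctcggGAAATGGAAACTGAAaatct
Ifit1: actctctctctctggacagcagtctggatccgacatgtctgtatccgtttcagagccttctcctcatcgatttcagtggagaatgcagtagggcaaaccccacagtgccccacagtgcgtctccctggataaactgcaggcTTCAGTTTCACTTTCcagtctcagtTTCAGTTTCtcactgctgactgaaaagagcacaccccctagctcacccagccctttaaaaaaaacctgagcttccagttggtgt
By the same count the AP-1 site TGANTCA was in none of 16 promoters of AP-1 and stress factor genes (5.3% of all tested) and in 9.4% of promoters with at least a 2-fold rise.

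Astrocyte genes rose, those known from reactive astrocytes among them. All 19 tested genes of the reactive list were higher (median 1.58). Vim, an intermediate filament protein, had 83.03, 122 and 128 FPKM in experimental libraries, against 9.68, 7.84 and 8.45 FPKM in control libraries (3.52 ± 0.17). Gfap, the filament that defines reactive astrocytes, had 393, 693 and 549 FPKM in experimental libraries, against 45.7, 32.6 and 35.3 FPKM in control libraries (3.79 ± 0.21). Of 12 tested general astrocyte markers, 11 were higher (median 0.70), with 6 higher without control replicate 1 and 7 under TPM. Slc1a2, the main glutamate transporter of astrocytes, had 144, 121 and 137 FPKM in experimental libraries, against 108, 129 and 99.4 FPKM in control libraries, with overlapping groups (0.26 ± 0.12, adjusted p = 0.12). Aldh1l1, a folate enzyme used as a marker of all astrocytes, had 22.1, 29.1 and 29.7 FPKM in experimental libraries, against 11.5, 11.5 and 10.2 FPKM in control libraries (1.21 ± 0.12).

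Matrix, protease and vessel genes rose with them. Of 18 tested matrix and scar genes, 14 were higher (median 0.85). Col4a1, a collagen of vessel basement membranes, had 16.4, 13.9 and 17.7 FPKM in experimental libraries, against 3.54, 3.70 and 4.30 FPKM in control libraries (1.81 ± 0.10). Adam8, a membrane protease of myeloid cells, was higher by 2.44 ± 0.08. Of 14 tested coagulation and plasminogen genes, 12 were higher. All 13 tested endothelial markers were higher (median 0.71), and so were 14 of 17 tested genes of barrier junctions and transport, with Tfrc lower. Cldn5, the claudin that seals the tight junctions of brain vessels, had 64.2, 57.3 and 53.6 FPKM in experimental libraries, against 20.5, 21.2 and 18.5 FPKM in control libraries (1.49 ± 0.09). Cdh5, the cadherin of endothelial junctions, had 8.09, 7.54 and 8.13 FPKM in experimental libraries, against 2.74, 2.99 and 3.13 FPKM in control libraries (1.17 ± 0.07). Both genes were higher in every experimental library than in any control library. Vegfa, the main growth factor of vessels, did not pass the threshold (-0.19 ± 0.07, adjusted p = 0.0754, named after its values were seen). Of 11 tested pericyte and smooth muscle markers 7 were higher, led by Tagln (1.73).

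Markers of the oligodendrocyte lineage rose in part. Of 10 tested precursor markers, 8 were higher (5 without control replicate 1), led by Gpr17 (0.77 ± 0.09) and Olig1 (0.67 ± 0.08). Of 12 markers of mature oligodendrocytes, 4 were higher, and this count ran from 1 to 7 when single libraries were left out and was 1 higher and 2 lower under TPM. Mbp, the myelin basic protein, had 546, 538 and 555 FPKM in experimental libraries, against 518, 456 and 422 FPKM in control libraries (0.24 ± 0.09, adjusted p = 0.0785). The groups did not overlap for Mbp, but the difference was small against the spread, and it passed without control replicate 1 (adjusted p = 0.0438). None of 10 choroid plexus and ependyma markers passed the threshold, and their median had no stable sign (-0.44 to 0.18 when single libraries were left out).

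Cell cycle genes rose, at low levels in both groups. Of 20 tested genes, 19 were higher (median 1.72), against 19.9% of all tested genes. Ccna2, cyclin A2, had 5.32, 5.81 and 6.90 FPKM in experimental libraries, against 0.431, 0.694 and 0.454 FPKM in control libraries (2.20 ± 0.11). Birc5, or survivin, of the chromosomal passenger complex, had 2.44, 2.67 and 2.70 FPKM in experimental libraries, against 0.181, 0.207 and 0.108 FPKM in control libraries (1.63 ± 0.08). Neither gene had a control library above 1 FPKM. Members this low in the control, Top2a and Cdk1 below among them, enter only if all experimental libraries reach 1 FPKM. Their direction is fixed by the filter. Of the 20 the exception was Ccne1, cyclin E1, which did not pass (-0.29 ± 0.10, adjusted p = 0.0511). Kinesins, motors of mitosis and of axonal transport, were split, with 8 of 25 tested genes higher and 5 lower (median 0.09). Under TPM the sign of that median turned (-0.06), with 7 higher and 8 lower. Kif20a, which acts at the end of cell division, had 2.53, 3.08 and 3.71 FPKM in experimental libraries, against 0.314, 0.316 and 0.251 FPKM in control libraries (1.66 ± 0.12), while Kif21a, a motor of axons named after its values were seen, had 17.9, 17.6 and 19.1 FPKM in experimental libraries, against 31.6, 27.5 and 29.9 FPKM in control libraries (-0.67 ± 0.08). The CCAAT box, searched as CCAAT on both strands, was in 13 of 16 cell cycle promoters (81.2%), against 40.2% of all tested promoters. Among promoters of genes with at least a 2-fold rise its share was 37.7%. Top2a, the topoisomerase that untangles chromosomes, had 3.58, 5.34 and 6.60 FPKM in experimental libraries, against 0.210, 0.263 and 0.143 FPKM in control libraries (2.33 ± 0.17). Cdk1, the kinase that starts mitosis, had 1.91, 2.86 and 2.99 FPKM in experimental libraries, against 0.0270, 0.0380 and 0.0344 FPKM in control libraries (1.78 ± 0.13). Their promoters hold 6 and 3 matches, in capitals (RefSeq, GRCm38.p6, 5′ to 3′ on the gene's strand, with Top2a at chr11:99024190-99024439, minus strand and Cdk1 at chr10:69352913-69353162, minus strand).
Top2a: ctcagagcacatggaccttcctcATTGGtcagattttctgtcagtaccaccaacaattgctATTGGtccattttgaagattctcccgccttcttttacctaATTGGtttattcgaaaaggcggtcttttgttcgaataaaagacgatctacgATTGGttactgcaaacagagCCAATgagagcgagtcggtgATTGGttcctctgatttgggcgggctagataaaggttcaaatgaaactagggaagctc
Cdk1: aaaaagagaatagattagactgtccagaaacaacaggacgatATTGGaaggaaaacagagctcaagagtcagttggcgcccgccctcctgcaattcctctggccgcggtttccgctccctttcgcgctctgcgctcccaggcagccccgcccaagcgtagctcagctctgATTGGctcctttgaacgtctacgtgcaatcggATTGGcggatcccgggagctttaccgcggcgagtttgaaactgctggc
Genes of cell death rose too, with 13 of 18 tested genes higher (median 0.70), led by Pycard, the adaptor of inflammasomes (1.65 ± 0.09), and Gsdmd, the pore protein of pyroptosis (1.52 ± 0.08).

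Cytosolic ribosomal protein genes rose, while counts for other complexes of protein and energy metabolism depended on the scaling. Of 86 tested cytosolic ribosomal protein genes, 77 were higher and none lower (median 0.56, and 0.41 with 66 higher under TPM). Rplp0, a stalk protein of the large subunit, had 252, 258 and 233 FPKM in experimental libraries, against 118, 118 and 111 FPKM in control libraries (1.09 ± 0.07). Of 78 mitochondrial ribosomal protein genes, 3 were higher and 4 lower (median -0.04), with 2 lower without any 1 of experimental replicates 1 and 3 and control replicate 1, and 24 lower under TPM (median -0.20). All 13 mRNAs of the mitochondrial genome were higher (median 0.42), with 8 higher without control replicate 2. None was called higher after quantile normalization, nor with no filter beyond a value above 0 in 3 libraries. Under TPM 5 were higher (median 0.26), and after rescaling without mitochondrial transcripts 12 were higher (median 0.36). That rescaling leaves out transcripts named mt- only, and Gm10925 and the other predicted genes of mitochondrial sequence stay in the sum. Quantile normalization gives the most abundant ranks nearly the same values in every library, so that a direction of these mRNAs is hard to see there. None of the 36 nuclear genes of complex I was higher and 5 were lower, a count that ran down to 0 when single libraries were left out and was 21 under TPM and 13 after rescaling without mitochondrial transcripts. Among 47 tested proteasome subunits 8 were higher and 3 lower (median 0.01, and -0.15 under TPM, where 5 were higher and 14 lower). The proteasome counts were 5 higher without experimental replicate 2 or control replicate 2, and 0 or 1 lower in every run without a library except experimental replicate 2. The 3 with the smallest p were subunits or activators that interferon induces, with Psmb8 at 1.82 ± 0.08, Psmb9 at 0.83 ± 0.09 and Psme2b at 0.64 ± 0.11. Of 21 tested entries of glycolysis and hypoxia, 2 were higher and 6 lower, with 3 lower without experimental replicate 1 2 without control replicate 1 or 2 and 10 under TPM. Hk2, an inducible hexokinase, had 2.66, 2.78 and 3.75 FPKM in experimental libraries, against 0.482, 0.484 and 0.532 FPKM in control libraries (1.43 ± 0.11), while Slc2a3, the glucose transporter of neurons, had 13.2, 15.2 and 13.8 FPKM in experimental libraries, against 19.1, 18.7 and 21.4 FPKM in control libraries (-0.46 ± 0.08). Of 17 circadian clock genes 9 were lower and none higher (5 lower without experimental replicate 2 or control replicate 1), led by Cry2 (-0.47 ± 0.07). The sources used here do not give the hour of sampling, and its part was not tested.

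**Figure D4:**
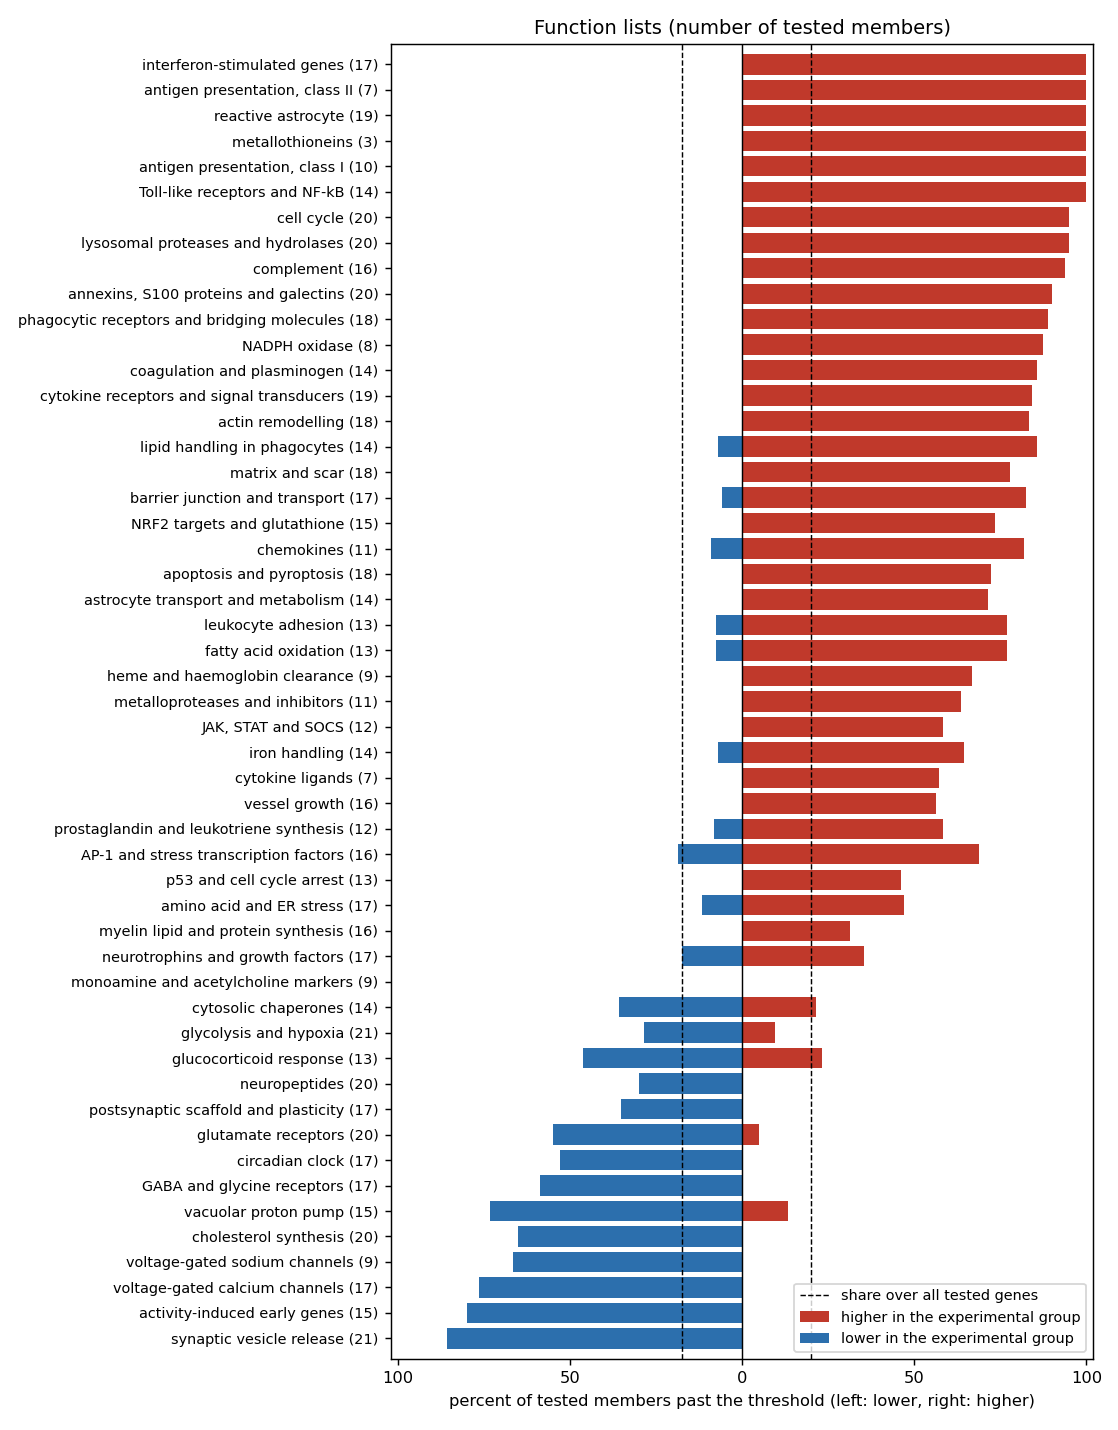
Bars give the percent of tested members of each function list that were higher (red, to the right) or lower (blue, to the left) in the experimental group, with the number of tested members in brackets. Dashed lines mark the shares over all tested genes, 19.9% higher and 17.5% lower, which lists of inflammation exceed on the right and lists of synapses and channels exceed on the left.

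Neuronal genes fell by small amounts in many members. Of 13 tested pan-neuronal genes, 10 were lower and none higher (median -0.54). Of 21 tested genes of synaptic vesicle release, 18 were lower and none higher (median -0.55). Nefm, a neurofilament of large axons, had 21.4, 16.2 and 20.4 FPKM in experimental libraries, against 44.4, 39.8 and 36.2 FPKM in control libraries (-1.02 ± 0.12). Every experimental library was below the control libraries for Nefm. Snap25, a vesicle fusion protein, had 154, 111 and 137 FPKM in experimental libraries, against 228, 189 and 184 FPKM in control libraries (-0.58 ± 0.14, adjusted p = 0.0148, and 0.0528 without control replicate 1). Rbfox3, the neuronal nuclear antigen NeuN, had 30.1, 21.7 and 22.2 FPKM in experimental libraries, against 34.3, 43.6 and 31.1 FPKM in control libraries (-0.54 ± 0.16, adjusted p = 0.0334). Its call was lost without either of experimental replicates 2 and 3 and control replicates 1 and 2, with adjusted p up to 0.107, and under quantile normalization. The same held with no filter beyond a value above 0 in 3 libraries (adjusted p = 0.077).

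Receptors and channels of neurons fell in the same range. Of 17 tested genes of GABA and glycine receptors, 10 were lower and none higher (median -0.51). Of 20 tested glutamate receptor genes, 11 were lower and 1 higher. Gria4, an AMPA receptor subunit, had 10.2, 11.1 and 10.6 FPKM in experimental libraries, against 16.6, 15.1 and 17.1 FPKM in control libraries (-0.57 ± 0.07). The exception, Grm3, a metabotropic receptor also found in astrocytes, had 15.9, 14.6 and 16.4 FPKM in experimental libraries, against 12.3, 13.1 and 10.6 FPKM in control libraries (0.36 ± 0.09), and its call was lost without experimental replicate 1 (adjusted p = 0.0510), without experimental replicate 3 (adjusted p = 0.0622) and under TPM. Of 9 sodium channel genes 6 were lower, of 17 calcium channel genes 13, and of 68 potassium channel genes 34, with 4 potassium channel genes higher. The lower potassium channel count was 22 without experimental replicate 2 and 21 without control replicate 1. With no filter beyond a value above 0 in 3 libraries it was 22 as well. Scn1a, a sodium channel of interneurons, had 9.58, 7.84 and 8.57 FPKM in experimental libraries, against 22.4, 17.7 and 15.8 FPKM in control libraries (-1.01 ± 0.13). Kcnk6, a leak channel, was the potassium channel with the smallest p and rose (1.47 ± 0.11).

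The largest falls were smaller than the largest rises. Among the 15 largest were Arl4d, a small GTPase, with 9.72, 7.67 and 10.2 FPKM in experimental libraries, against 20.8, 24.7 and 16.2 FPKM in control libraries (-1.07 ± 0.16), and Cbln4, a synapse organiser, with 2.47, 4.40 and 2.53 FPKM in experimental libraries, against 7.44, 5.86 and 9.19 FPKM in control libraries (-1.05 ± 0.21). Also among them were Clvs1, Lgi2, Ctxn3, Nefh and Pcp4, with log2 fold changes of -1.05 (Clvs1), -1.05 (Lgi2), -1.03 (Ctxn3), -1.05 (Nefh) and -1.02 (Pcp4). Among genes past the threshold, the largest loss of FPKM was that of Calm2, a calmodulin gene, with 583, 515 and 470.0 FPKM in experimental libraries, against 782, 856 and 707 FPKM in control libraries (-0.58 ± 0.11). Atp1b1, a subunit of the sodium pump, had 336, 321 and 299.9 FPKM in experimental libraries, against 534, 493 and 489 FPKM in control libraries (-0.66 ± 0.08). The groups did not overlap in these 4 genes with values by library.

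Genes that neuronal activity switches on fell as a group of mixed stability. Of 15 tested early genes, 12 were lower and none higher (median -0.82), and 7 were lower without experimental replicate 3 and 7 without control replicate 1. Nr4a1, a nuclear receptor, had 13.05, 5.33 and 8.35 FPKM in experimental libraries, against 27.4, 36.8 and 17.3 FPKM in control libraries (-1.52 ± 0.34, adjusted p = 0.0109). Egr4, a zinc finger factor, had 7.52, 5.36 and 6.45 FPKM in experimental libraries, against 14.2, 19.8 and 9.92 FPKM in control libraries (-1.03 ± 0.23). Fos, the AP-1 subunit used as a marker of recent activity, had 9.40, 8.26 and 9.42 FPKM in experimental libraries, against 13.7, 15.7 and 11.1 FPKM in control libraries (-0.52 ± 0.12, adjusted p = 0.0137). Bdnf, a neurotrophin induced by activity, had 2.41, 1.48 and 1.05 FPKM in experimental libraries, against 3.64, 3.58 and 2.93 FPKM in control libraries (-0.76 ± 0.18, adjusted p = 0.0146, and 0.0525 without control replicate 1). Control replicate 3 was the lowest control library for Nr4a1 and Bdnf. Of 16 tested AP-1 and stress factor genes, 11 were higher and 3 lower (7 higher and 5 lower under TPM). Spi1, the master factor of myeloid cells, had 8.97, 9.10 and 10.9 FPKM in experimental libraries, against 1.04, 1.13 and 1.11 FPKM in control libraries (2.34 ± 0.09), and Atf3, a factor of cell stress, had 4.21, 4.19 and 4.45 FPKM in experimental libraries, against 0.489, 0.407 and 0.514 FPKM in control libraries (1.85 ± 0.07). The 3 that were lower were Fosl2 (-0.47), Jund (-0.33) and Klf4 (-0.27), and 1 was lower without control replicate 2. The call of Jund was lost without control replicate 2 or 3 (adjusted p up to 0.0592), and that of Klf4 in every run that left out a library except experimental replicate 1 (adjusted p up to 0.0782).

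Genes of brain regions differed between libraries of the same group, in both groups. Pmch, the melanin-concentrating hormone of the lateral hypothalamus, had 0.348, 88.7 and 88.4 FPKM in experimental libraries, against 64.6, 0.0139 and 101 FPKM in control libraries. Hcrt, the orexin precursor of the same region, had 0.0682, 16.95 and 22.1 FPKM in experimental libraries, against 13.2, 0 and 26.5 FPKM in control libraries. Both were near 0 in experimental replicate 1 and control replicate 2 and high in the other 4 libraries. Penk, an opioid peptide abundant in striatum, had 10.3, 95.1 and 103 FPKM in experimental libraries, against 45.6, 152 and 155 FPKM in control libraries, and Drd2, the dopamine receptor of striatal neurons, had 0.917, 7.52 and 11.7 FPKM in experimental libraries, against 7.07, 16.9 and 18.3 FPKM in control libraries. Experimental replicate 1 was the lowest library for both, and control replicate 1 was the lowest control library for both. Neurod6, a factor of cortical and hippocampal neurons, had 34.9, 8.78 and 11.4 FPKM in experimental libraries, against 36.5, 27.9 and 10.7 FPKM in control libraries, with replicate 1 high in both groups. These 5 genes were chosen after their values were seen, and none passed the threshold. Slc6a3, the dopamine transporter of midbrain neurons, had 0, 1.21 and 0.365 FPKM in experimental libraries, against 8.44, 0 and 8.64 FPKM in control libraries. Th, the rate-limiting enzyme of dopamine synthesis, had 0.313, 2.42 and 3.11 FPKM in experimental libraries, against 6.16, 1.12 and 8.44 FPKM in control libraries. Control replicate 2 stood with the experimental libraries for Slc6a3, and the groups overlapped for Th too. Neither passed the threshold in all 6 libraries, and both were lower without control replicate 2 (adjusted p = 0.00145 for Slc6a3 and 0.0414 for Th). Of 13 striatal markers 1 was lower, Foxp1, and its call was lost in each run without a library except control replicate 3 (adjusted p up to 0.131). The median of the striatal list was -0.87 and ran from -1.28 to -0.27 when single libraries were left out. None of 10 cortical markers passed, while 4 of 8 thalamic markers were lower (median -0.64, and 7 lower under TPM), among them Ntng1 (-0.97 ± 0.14). Without experimental replicate 1, 10 of 13 pan-neuronal genes, 18 of 21 vesicle genes and 10 of 17 GABA and glycine receptor genes were lower. Without control replicate 2 these counts were 9, 17 and 10. The remaining libraries still differ in these regional genes, and the part of tissue sampling in the falls of neuronal genes was not tested.

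**Figure D5:**
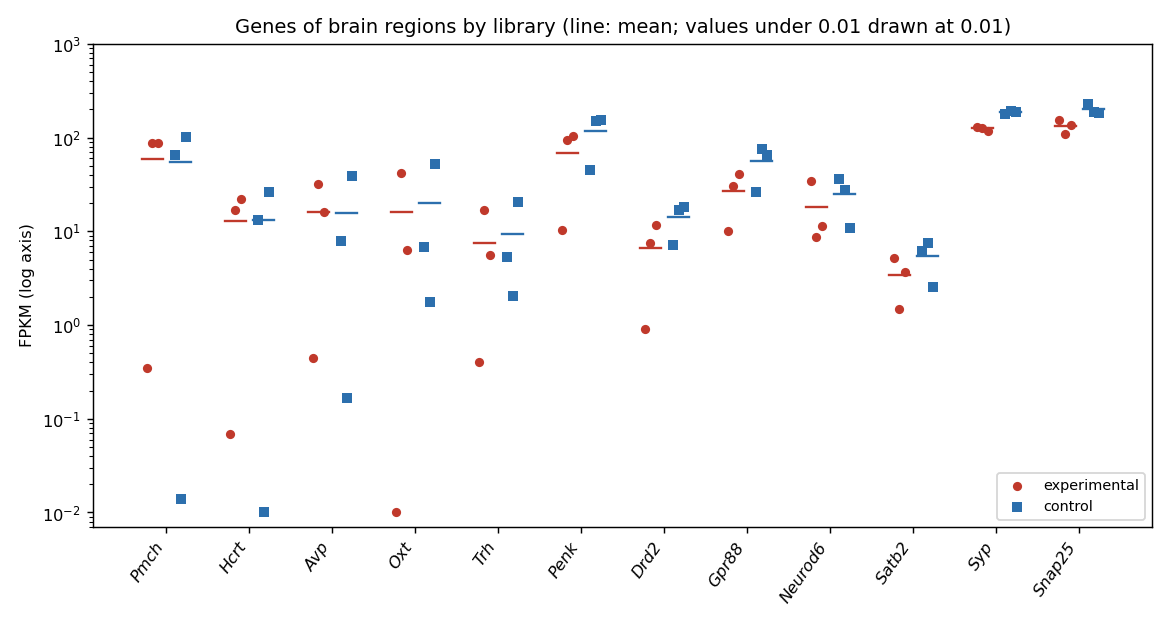
FPKM on a log axis for 10 genes of brain regions and 2 general synaptic genes, Syp and Snap25, with experimental libraries as red circles left of control libraries as blue squares, replicates 1 to 3 from left to right and lines at the means. Hypothalamic genes such as Pmch run from 0.348 to 88.7 FPKM within the experimental and from 0.0139 to 101.2 FPKM within the control group, while Syp and Snap25 vary less inside a group.

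Genes often used as internal standards did not all stay level. Actb, beta-actin, had 367, 359.8 and 385 FPKM in experimental libraries, against 226, 273 and 230.1 FPKM in control libraries (0.61 ± 0.09, adjusted p = 0.00214), and 15 of 18 tested genes of actin remodelling were higher (median 0.96), led by Arpc1b (2.31). Gapdh, a glycolytic enzyme with many pseudogenes that may share its reads, had 8.56, 9.01 and 24.1 FPKM in experimental libraries, against 8.92, 12.6 and 8.29 FPKM in control libraries, with overlapping groups (0.31 ± 0.36, adjusted p = 0.523). Large families with no common function had calls in both directions. Of 312 tested zinc finger genes named Zfp, 14 were higher and 45 lower, with between 21 and 28 lower without experimental replicate 1 or 3 or control replicate 1 or 3. The lower Zfp count was 122 under TPM, 123 after quantile normalization and 69 after rescaling without mitochondrial transcripts. Of 241 tested solute carriers, 65 were higher and 43 lower (27 lower without control replicate 1), with a median of 0.02 (-0.11 under TPM, where the balance turned to 51 higher and 77 lower). By annotation, 2604 of 12501 protein-coding genes were higher and 2327 lower, against 56 higher and 60 lower of 535 long noncoding RNA genes.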

How the data were processed

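RNA from mouse brain next to the haematoma was sequenced, and the authors deposited one table of FPKM, a level per transcript length and library size, for 33586 entries in 9 libraries. The genome build is mm10, per the submitters' processing notes, and the sources used here do not give the aligner, the counting tool or its strand setting. FPKM is not a count, so no count model was used, and no interval for counting error can be given.

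The 3 experimental and 3 control libraries were grouped by their labels. Entries at 1 FPKM or more in 3 or more of these 6 libraries (14231) were tested as log2(FPKM + 1) with limma 3.58.1 in R 4.3.3, without a replicate term, with Benjamini-Hochberg adjustment over all of them at a threshold of 0.05. A fold change on this scale understates the change of low genes. The fit was tested on simulated data. Scaling, pseudocount, filter, the fit and single libraries were varied as alternatives.

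The 68 lists (955 genes), the 50 symbol families and the members were chosen with earlier results of these data known, and list counts are descriptions with no test of the list. Named genes are the 15 largest changes and the 8 largest FPKM changes in each direction (mitochondrial transcripts left out), up to 4 members of a list and 3 of a family by adjusted p, members that went against their list, and a fixed set of injury and cell markers. Others were chosen after their values were seen. The 15 largest exclude predicted genes, groups that overlap and means under 1 FPKM. Symbols of 96.8% of entries matched GENCODE M21, which gave coordinates and biotypes, and promoters are from RefSeq on GRCm38.p6.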

Additional observations from a re-analysis of the deposited data

Results flagged for a closer look

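The 3 intervention libraries enter no comparison above, and Hmox1, heme oxygenase 1, stood above the control level in them. Its mean was 200.5 FPKM (SD 27.5, n = 3) in intervention libraries, against 2.30 ± 0.327 FPKM (SD, n = 3) in control libraries. This is a signal in libraries outside the main measurement, and the difference was not tested.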

How the results depend on the processing

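The replicate numbers did not pair the libraries: deviations of same-numbered libraries correlated at 0.219, -0.356 and 0.206 for numbers 1, 2 and 3 (across genes, which are not independent). With the replicate block 4798 genes changed, 2623 higher and 2175 lower, with 707 and 23 at least 2-fold higher and lower. It also called Hbb-bs, Hbb-bt and Cd4 lower (adjusted p = 0.0233, 0.0279 and 0.0279) and S100a8 higher (adjusted p = 0.0239), with 12 of 13 striatal markers lower. Of the 5325 calls, 64.2% to 99.4% were kept under the 15 alternatives and 0 reversed. A pseudocount of 0.1 gave 1061 genes at least 2-fold higher and 64 lower. A filter of 5 FPKM, which tests fewer genes, gave 1495 higher and 385 at least 2-fold higher. With no filter beyond a value above 0 in 3 libraries, 3286 were higher and 2065 lower. TPM gave 4809 lower and 119 at least 2-fold lower, against 29 after quantile normalization. Under TPM 1 member was lower in each of the lists of heme clearance, NRF2 targets, phagocytic receptors, complement, cytokine ligands, cell cycle and cell death, and 2 in that of JAK, STAT and SOCS, which had none lower on the deposited scale. Rescaling without mitochondrial transcripts, chosen after seeing the data, gave 77 at least 2-fold lower. It kept Gm10925 and the other predicted genes of mitochondrial sequence in the sum, so that only a part of such reads was taken out. Leaving out single libraries gave 4013 to 4644 changed, 2388 to 2606 higher and 1569 to 2043 lower, with 684 to 737 at least 2-fold higher and 15 to 26 at least 2-fold lower. The lowest of these lower counts, 1569, was that without control replicate 1. After quantile normalization Gm28437 was at -0.0000 and mt-Nd5 at -0.0304 (adjusted p = 0.634), the 2 named genes that turned sign, and that setting equalises the most abundant ranks by construction. The cause of the other shifts was not tested. The absolute depth of the libraries was not worked out, so what it limits is not stated.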
